A study of Mus musculus with 8 samples.

Results

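The circadian clock of skeletal muscle was examined through 10 of its genes, *Arntl*, *Npas2* and *Clock* of the positive arm and *Per1*, *Per2*, *Per3*, *Cry1*, *Nr1d1*, *Nr1d2* and *Dbp* of the negative arm. All non-control probes annotated with a mouse RefSeq transcript of these genes were taken, which gave 19 of the 56605 probes of the array, 7 for the positive arm and 12 for the negative arm. All 19 probes were bright enough to be tested, and 17 stood well above background in every mouse. RNA of 8 Cy3-labeled Agilent 1-color arrays came from the quadriceps of 6 male mice aged 17 months, 3 Grsf1cKO and 3 WT, and WT 1 and Grsf1cKO 1 were each hybridized again. The labels name the vastus intermedius as the muscle, whereas the text of the study names the rectus femoris. Grsf1cKO mice descended from the Grsf1tm1a allele, whose reporter and selection cassettes had been removed with FLPo, and lost the floxed exons IV and V of *Grsf1* through Myf5Cre. Myf5Cre acts in muscle precursors, and which other cells within the muscle keep the gene was not examined. The sources used here do not say whether the WT mice carried Cre or a floxed allele.

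The circadian clock is a feedback loop of transcription that runs in nearly every cell. ARNTL pairs with CLOCK or NPAS2 and activates *Per*, *Cry*, *Nr1d* and *Dbp* genes through E-boxes, PER and CRY proteins inhibit that pair, and NR1D proteins repress *Arntl* at ROR elements, so that *Arntl* and genes such as *Dbp* peak at opposite times of day. In skeletal muscle the clock is known to time genes of glucose and lipid use. Levels below are log2 of the quantile normalized spot signal, averaged over the arrays of a mouse, and a difference is always Grsf1cKO minus WT. They belong to 1 probe each and were not compared between genes. The labels hold no time of harvest, so the position of each mouse in its daily cycle was not tested.

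None of the 19 probes passed the criteria for a changed probe (fold change over 1.5, unadjusted *p* under 0.01 and Benjamini-Hochberg adjusted *p* under 0.2 with limma), against 3 of all 38888 probes tested (0.00771%). At an unadjusted *p* under 0.05 the count was also 0 of 19, against 4.24% of all probes. The *z*-test named in the methods was used with the same criteria, not with the *z*-ratio that the methods ask for. It called 0 of 19, against 0.816% of all probes by that test. At an unadjusted *p* under 0.05 it found 1, a probe of *Nr1d2*, against 10.8% of all probes. For 1 of the 19, the same probe of *Nr1d2*, every mouse of a genotype lay beyond all mice of the other, against 9.36% of all probes. The log2 fold change was above 0 for 7 probes and below 0 for 12, with a median of -0.03 over the 19 probes and of -0.03 over all probes tested. The smallest *p* of a 2-sided exact permutation test with 3 mice of each genotype is 0.1. A *p* above a threshold does not show that the genotypes were alike, and the 95% intervals below give the differences that remain possible.

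**Figure D1:**
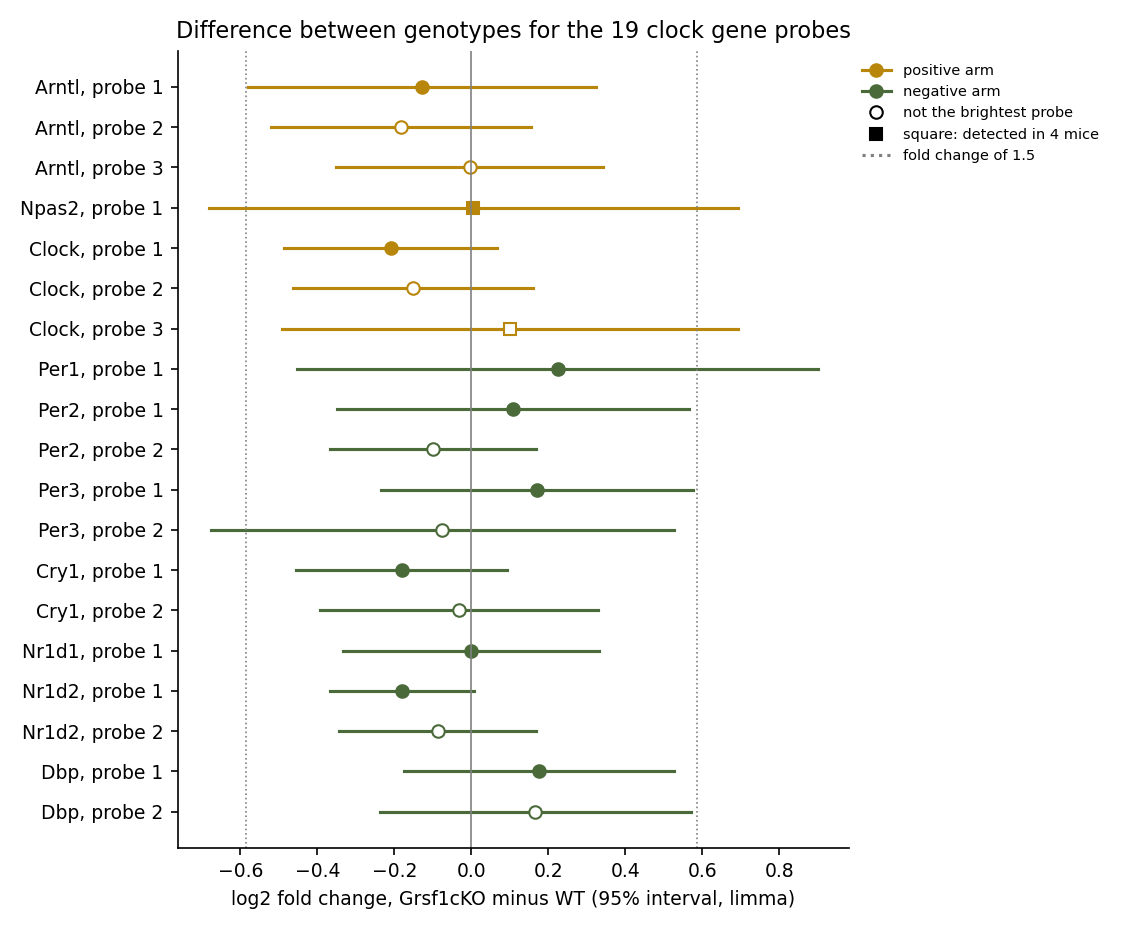
Log2 fold change (Grsf1cKO minus WT, horizontal axis) of the 19 clock gene probes with the 95% interval from limma, numbered within a gene from the brightest probe (filled) down. All 19 intervals include 0, and the estimates lie between -0.21 (*Clock*) and 0.22 (*Per1*).

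The labels were checked first with *Grsf1* itself. Its probe had log2 signals of 12.16, 12.03 and 12.09 for Grsf1cKO 1 to 3, against 14.31, 14.26 and 14.28 for WT 1 to 3. The 3 Grsf1cKO mice thus lay far below the WT mice, with a log2 fold change of -2.19 and an adjusted *p* of 0.00275 (limma). The position of this probe relative to the floxed exons was not examined. Muscle fiber genes were bright in all mice, with the skeletal actin *Acta1* between 18.69 and 18.75 and the fast myosin *Myh4* between 18.49 and 18.58. Genotypes did not overlap in 2 of the 10 fiber genes, *Myh2* (difference 0.19) and *Myh4* (-0.05), against 9.36% of all probes, though both overlapped in their other probe. The slow myosin *Myh7* varied more, from 9.28 in WT 1 and 9.40 and 9.47 in Grsf1cKO 3 and 2 to 11.33, 11.36 and 11.39 in WT 3, Grsf1cKO 1 and WT 2.

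Some of the gene starts hold matches to elements through which the loop is known to run. Only the promoters with a match, 5 of 13, are shown, because the known loop between the arms acts through such elements. Sequences came from RefSeq, build GRCm38.p6, and cover 250 bases before to 50 bases after a gene start, on the strand of the gene and 5′ to 3′. Of the 10 genes, 9 had an entry, with 13 promoters in all. *Per2* was not matched. Capitals mark every match, on either strand, to the E-box CACGTG, the E'-box CACGTT, the D-box TTATGTAA or TTACGTAA, the ROR element TAGGTCA or TGGGTCA, and the cAMP response element TGACGTCA. None of the matches overlapped another.
*Arntl*, chr7:113207261-113207560, plus strand: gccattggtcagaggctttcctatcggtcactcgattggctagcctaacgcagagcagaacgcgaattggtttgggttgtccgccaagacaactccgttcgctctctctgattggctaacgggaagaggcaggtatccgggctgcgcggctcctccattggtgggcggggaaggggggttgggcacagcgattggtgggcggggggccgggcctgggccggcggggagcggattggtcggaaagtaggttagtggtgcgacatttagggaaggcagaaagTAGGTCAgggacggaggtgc
*Per1*, chr11:69098699-69098998, plus strand: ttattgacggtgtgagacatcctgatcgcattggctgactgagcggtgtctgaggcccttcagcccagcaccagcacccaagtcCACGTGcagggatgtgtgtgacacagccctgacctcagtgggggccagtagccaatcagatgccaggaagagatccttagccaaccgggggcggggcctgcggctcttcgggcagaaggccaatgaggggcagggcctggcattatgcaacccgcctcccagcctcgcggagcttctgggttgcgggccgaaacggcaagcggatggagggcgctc
*Cry1*, chr10:85185005-85185304, minus strand: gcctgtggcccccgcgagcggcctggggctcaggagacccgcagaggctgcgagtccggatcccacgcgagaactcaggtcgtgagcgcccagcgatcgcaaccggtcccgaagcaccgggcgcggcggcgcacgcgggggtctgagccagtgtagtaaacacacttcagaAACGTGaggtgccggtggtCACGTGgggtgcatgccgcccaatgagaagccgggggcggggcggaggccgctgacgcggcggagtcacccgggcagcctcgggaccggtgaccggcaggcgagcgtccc
*Nr1d1*, chr11:98775328-98775627, minus strand: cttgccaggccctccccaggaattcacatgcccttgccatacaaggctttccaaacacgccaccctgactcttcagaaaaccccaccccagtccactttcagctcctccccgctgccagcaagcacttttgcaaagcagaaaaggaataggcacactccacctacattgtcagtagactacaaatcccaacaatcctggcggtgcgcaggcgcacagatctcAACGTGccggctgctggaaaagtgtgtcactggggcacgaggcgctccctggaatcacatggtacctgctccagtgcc
*Per3*, chr4:151044616-151044915, minus strand: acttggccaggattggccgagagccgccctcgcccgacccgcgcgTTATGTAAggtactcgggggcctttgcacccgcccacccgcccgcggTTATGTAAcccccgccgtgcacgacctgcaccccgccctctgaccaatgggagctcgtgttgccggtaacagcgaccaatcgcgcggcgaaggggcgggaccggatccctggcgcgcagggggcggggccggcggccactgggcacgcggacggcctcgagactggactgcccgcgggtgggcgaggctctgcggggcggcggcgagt

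In these windows the ROR element of *Arntl* begins 30 bases after the start, and the other *Arntl* promoter of the table, whose window begins upstream, holds no match. An E-box begins 166 bases before the start of *Per1* and 60 bases before that of *Cry1*, while the other *Per1* promoter holds no match. E'-boxes, both read on the opposite strand, begin 79 bases before the start of *Cry1* and 28 bases before that of *Nr1d1*, and *Per3* holds D-boxes at 205 and 158 bases before its start. Of all 32851 promoters in the table, 7.15% hold an E-box, 4.68% an E'-box, 1.06% a D-box, 6.45% a ROR element and 1.79% a cAMP response element. Among the 13 promoters of the clock members, 2 (15.4%) hold an E-box, 2 (15.4%) an E'-box, 1 (7.69%) a D-box, 1 (7.69%) a ROR element and 0 a cAMP response element. Among 17 promoters of 12 other clock genes the counts were 4 (23.5%), 2 (11.8%), 1 (5.88%), 1 (5.88%) and 1 (5.88%) in the same order. These matches are descriptions of short windows and say nothing of binding in this muscle.

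In the positive arm, *Arntl*, whose protein is the partner that the loop cannot do without, separated the mice but not the genotypes. Its brightest probe had log2 signals of 12.13, 11.83 and 11.80 for Grsf1cKO 1 to 3, against 12.21, 12.25 and 11.69 for WT 1 to 3. WT 1, WT 2 and Grsf1cKO 1 were therefore high, while Grsf1cKO 2, Grsf1cKO 3 and WT 3 were low, and WT 3 was the lowest of all. The means were 11.92 ± 0.18 and 12.05 ± 0.31 (SD over 3 mice each), a difference of -0.13 with a 95% interval from -0.58 to 0.32 (limma, adjusted *p* = 0.995; 2-sided exact permutation *p* = 0.7). Both dimmer probes were again lowest in 1 of the low mice, at 8.16 in Grsf1cKO 3 and 7.64 in WT 3, and highest in WT 2, at 8.69 and 8.13. They showed no clear gap between high and low mice. Grsf1cKO 1 and Grsf1cKO 2 were at 8.39 and 8.38 in the brighter of them, and WT 1 and Grsf1cKO 2 at 7.97 and 7.89 in the dimmest. WT 1 and WT 2 were first hybridized on slide 1, and all other arrays were on slide 2, so that slide and genotype overlap in part. The repeat of WT 1 on slide 2 gave 12.16, against 12.26 on its first array. That gap of -0.10 (repeat minus first) was nearly as large as the genotype difference of -0.13. With the slide as a block the difference was -0.01 for this probe and -0.16 for the next, which otherwise differed by -0.18. The effect of the slide on *Arntl* was not tested on its own. On slide 2 alone the brightest probe differed by -0.00, while leaving out 1 mouse at a time gave -0.31 (without WT 3) to -0.03 (without WT 2).

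*Clock*, which encodes the main partner of ARNTL, did not pass the criteria, and the differences of its probes went both ways. Log2 signals of its brightest probe were 11.93, 11.69 and 11.73 for Grsf1cKO 1 to 3, against 12.13, 11.90 and 11.93 for WT 1 to 3. Grsf1cKO 1 lay within the WT range, so the genotypes overlapped, and the difference of -0.21 had a 95% interval from -0.49 to 0.07 (limma, adjusted *p* = 0.994; 2-sided exact permutation *p* = 0.2). On slide 2 alone it was -0.27, and without WT 1 it was -0.14. The next probe of *Clock* differed by -0.15, and the dimmest, well above background in 4 of 6 mice, by 0.10. *Npas2*, the alternative partner, was near the limit of detection, well above background in 4 of 6 mice. Its levels were 4.97, 5.38 and 4.32 for Grsf1cKO 1 to 3, against 4.63, 4.91 and 5.11 for WT 1 to 3, so that the highest and the lowest mouse were both Grsf1cKO. The difference was 0.01 (95% interval from -0.68 to 0.69), and its sign changed in 5 of the 13 alternatives that can move it.

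The period genes encode inhibitors of the ARNTL pair, and *Per1* and the brightest *Per2* probe were marked by 1 mouse. *Per1* had log2 signals of 13.74, 14.68 and 13.68 for Grsf1cKO 1 to 3, against 13.71, 13.89 and 13.83 for WT 1 to 3. Grsf1cKO 2 thus stood above every other mouse, and the other 2 Grsf1cKO mice lay with WT 1 at the low end. The difference was 0.22 (95% interval from -0.45 to 0.90; limma, adjusted *p* = 0.994). Without Grsf1cKO 2 it was -0.10, while without Grsf1cKO 1 or 3 it was 0.37 or 0.40. In the brightest *Per2* probe the same mouse was highest, with 10.74, 11.44 and 11.10 for Grsf1cKO 1 to 3, against 10.86, 11.01 and 11.09 for WT 1 to 3. That difference, 0.11 (95% interval from -0.35 to 0.56), also turned, to -0.06, without Grsf1cKO 2 and was 0.28 without Grsf1cKO 1 and 0.05 without WT 1. The dimmer *Per2* probe did not share the pattern, since Grsf1cKO 2 was its lowest mouse at 6.13.

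*Per3* varied within the WT group instead. Its brightest probe read 10.37, 10.67 and 10.50 for Grsf1cKO 1 to 3, against 10.03, 10.42 and 10.57 for WT 1 to 3. WT 1 was the lowest mouse and Grsf1cKO 2 again the highest, with all other mice between them, and the difference was 0.17 (95% interval from -0.24 to 0.58), but 0.02 without WT 1 and 0.28 without WT 3. The dimmer probe differed by -0.08, but the arrays of Grsf1cKO 1 disagreed in it by -1.02 (repeat minus first), against 0.12 for WT 1. *Cry1*, the cryptochrome of the list, had levels of 7.38, 7.32 and 7.19 for Grsf1cKO 1 to 3, against 7.65, 7.37 and 7.41 for WT 1 to 3 for its brightest probe. WT 1 was highest, Grsf1cKO 1 lay just above WT 2, and the difference was -0.18 (95% interval from -0.46 to 0.09), or -0.09 without WT 1. The arrays of Grsf1cKO 1 differed by -0.70 in this probe, so that first arrays alone gave -0.07 and repeat arrays in their place -0.30, and the other *Cry1* probe differed between genotypes by -0.03.

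**Figure D2:**
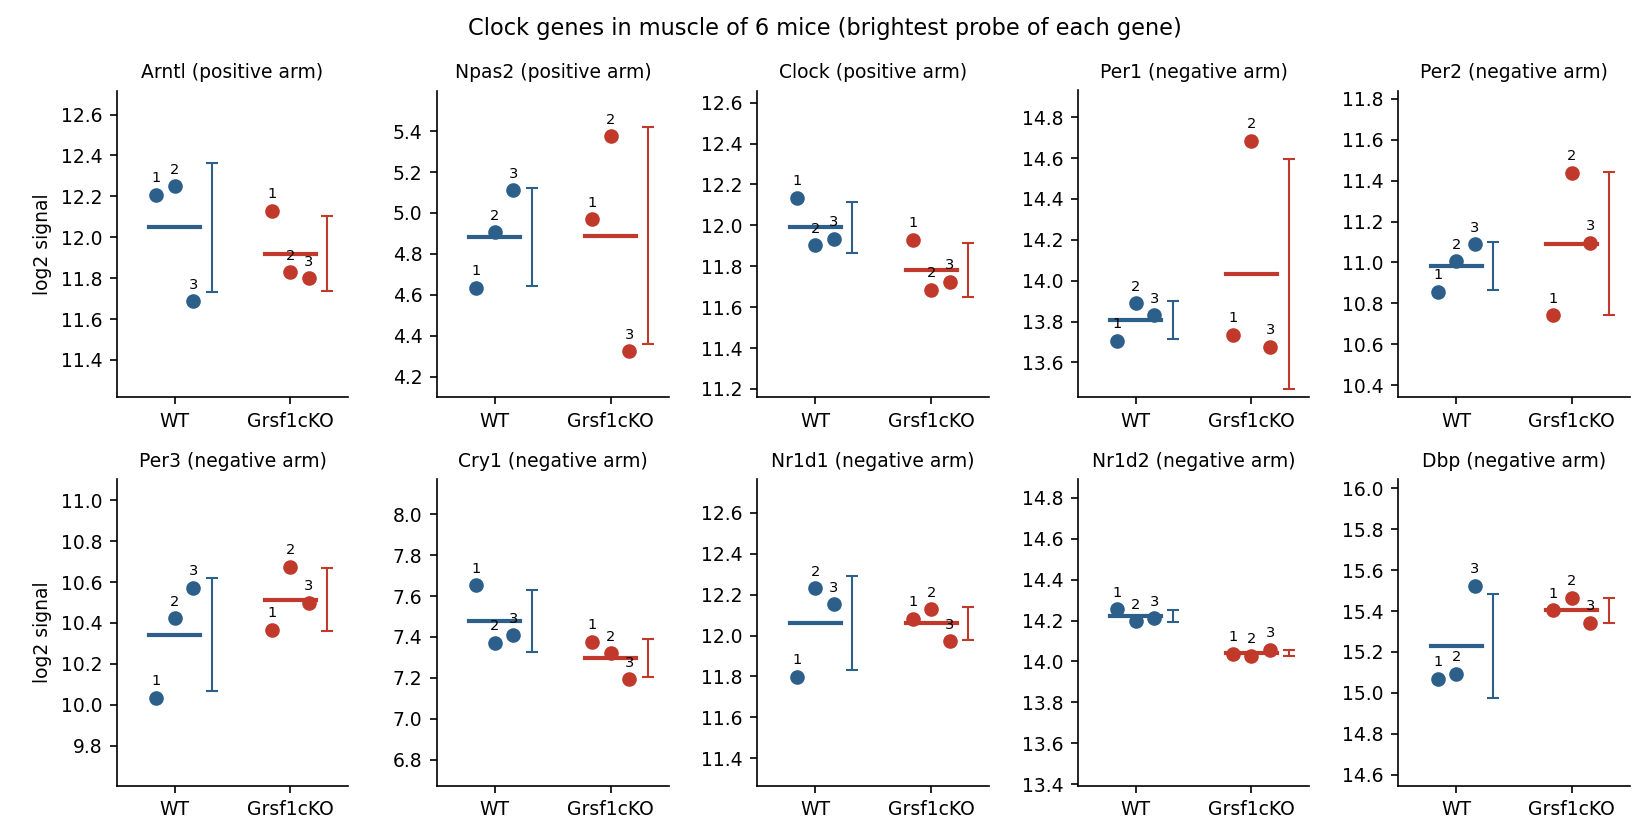
Log2 signal of the brightest probe of each clock gene (vertical axes, each spanning 1.5 log2 units) in WT and Grsf1cKO mice, with points numbered by mouse, the mean as a line and the SD as a bar. *Nr1d2* separates the genotypes, with 14.03 to 14.06 in Grsf1cKO and 14.20 to 14.26 in WT mice, while in *Per1* Grsf1cKO 2 stands apart at 14.68.

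The nuclear receptors NR1D1 and NR1D2 repress *Arntl*, and their genes differed in pattern. *Nr1d1* read 12.08, 12.13 and 11.97 for Grsf1cKO 1 to 3, against 11.80, 12.23 and 12.15 for WT 1 to 3. WT 2 was highest and WT 1 lowest, so all Grsf1cKO mice lay inside the WT range, with a difference of -0.00 (95% interval from -0.33 to 0.33), whose sign changed in 7 of the 13 alternatives that can move it. The brightest *Nr1d2* probe had 14.04, 14.03 and 14.06 for Grsf1cKO 1 to 3, against 14.26, 14.20 and 14.21 for WT 1 to 3. Here every Grsf1cKO mouse lay below every WT mouse and the mice of a genotype were close, with an SD of 0.01 in Grsf1cKO and 0.03 in WT. The difference of -0.18 (95% interval from -0.37 to 0.01) had an unadjusted *p* of 0.0552 and an adjusted *p* of 0.994 with limma, and an exact permutation *p* of 0.1, the smallest the design allows. The arrays of WT 1 differed in this probe by -0.19 (repeat minus first), as much as the genotypes did, and with the slide as a block the difference was -0.12. In the other *Nr1d2* probe (12.93, 12.95 and 13.08 for Grsf1cKO 1 to 3, against 13.15, 12.92 and 13.16 for WT 1 to 3) the genotypes overlapped.

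*Dbp*, an output gene of the loop that encodes an activator acting at D-boxes, mirrored *Arntl* across much of the group. Its brightest probe had log2 signals of 15.40, 15.47 and 15.34 for Grsf1cKO 1 to 3, against 15.07, 15.09 and 15.52 for WT 1 to 3. WT 1 and WT 2 were low, the 3 Grsf1cKO mice were higher and WT 3 was highest, in both *Dbp* probes. The difference was 0.18 (95% interval from -0.17 to 0.53; limma, adjusted *p* = 0.994; 2-sided exact permutation *p* = 0.4), with 0.17 for the other probe. Single WT mice changed its size both ways, since without WT 3 it was 0.32 (unadjusted *p* = 0.0220, adjusted *p* = 0.998, limma), and without WT 1 and WT 2 it was 0.10 and 0.11. The other probe gave 0.33 without WT 3 and 0.04 without WT 1. On slide 2 alone the brightest probe differed by 0.10, and with the slide as a block by 0.11.

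Both arms were then summarized for each mouse as the mean over genes of the log2 level minus the WT mean. The positive arm stood at 0.04, -0.01 and -0.36 for Grsf1cKO 1 to 3, against 0.02, 0.05 and -0.06 for WT 1 to 3. The negative arm stood at -0.05, 0.23 and -0.04 for Grsf1cKO 1 to 3, against -0.11, 0.01 and 0.09 for WT 1 to 3. Grsf1cKO 2 was thus high in the negative arm, and Grsf1cKO 1 lay among the WT mice. The value of Grsf1cKO 2 rested most on *Per1*, at 14.68 against a WT mean of 13.81. In *Cry1* (7.32 against 7.48) and *Nr1d2* (14.03 against 14.22) this mouse lay below the WT mean, and in the other genes of the arm above it. Grsf1cKO 3 was lowest in the positive arm, but this rested on *Npas2*, near the limit of detection. Without *Npas2* the positive arm stood at 0.01, -0.26 and -0.26 for Grsf1cKO 1 to 3, against 0.15, 0.06 and -0.21 for WT 1 to 3, so that Grsf1cKO 2, Grsf1cKO 3 and WT 3 were all low. The positive minus the negative arm was 0.09, -0.24 and -0.32 for Grsf1cKO 1 to 3, against 0.13, 0.03 and -0.16 for WT 1 to 3. The genotypes overlapped in either arm and in their difference, with means of -0.16 ± 0.22 for Grsf1cKO against 0.00 ± 0.14 for WT (SD over 3 mice).

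The gap of -0.16 between genotypes in that difference was of the order of the spread between mice and was not tested, since the genes were chosen as a list. It depended on single mice and on the slide. Leaving out 1 mouse at a time gave values from -0.28 (without Grsf1cKO 1) to -0.08 (without Grsf1cKO 3), with -0.24 without WT 3 and -0.09 without WT 1. The value was -0.12 on slide 2 alone, -0.05 with the slide as a block and -0.09 with the mean of all probes of a gene. Requiring detection in all 6 mice took *Npas2* out of the positive arm, after which the difference was 0.07, -0.49 and -0.21 for Grsf1cKO 1 to 3, against 0.26, 0.04 and -0.30 for WT 1 to 3. Without *Npas2* WT 3 thus lay between Grsf1cKO 2 and Grsf1cKO 3, and the gap between genotypes was -0.21. The arrays of Grsf1cKO 1 gave differences between the arms of 0.08 and 0.10, and those of WT 1, on different slides, of 0.17 and 0.08.

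**Figure D3:**
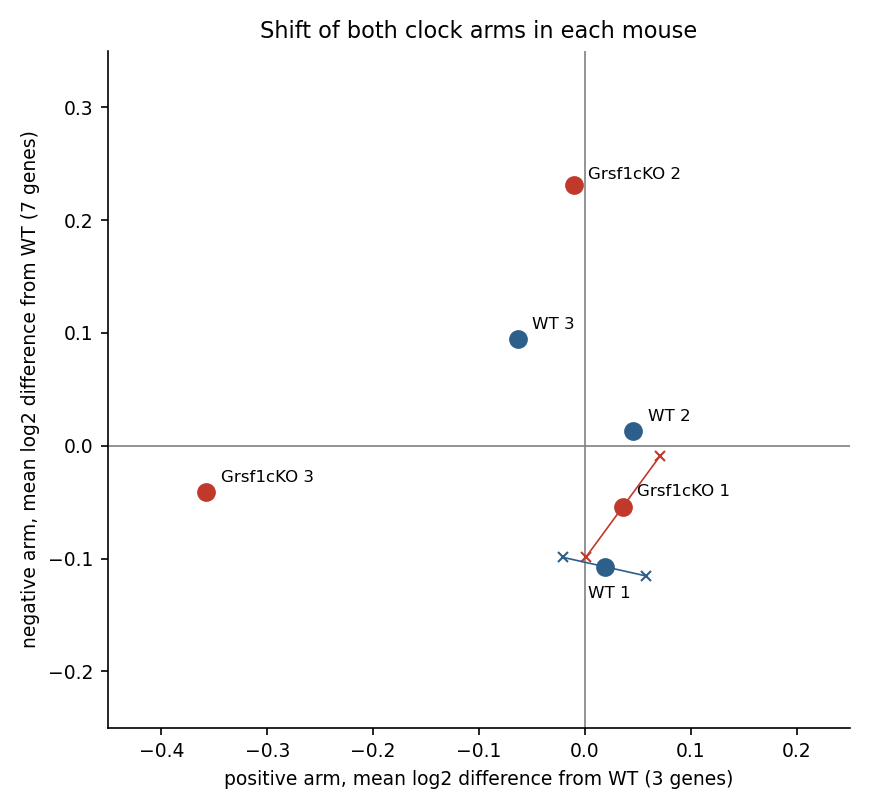
Mean log2 difference from WT of the positive arm (horizontal axis, 3 genes) and the negative arm (vertical axis, 7 genes) in each mouse, with crosses for the single arrays of WT 1 and Grsf1cKO 1. Grsf1cKO 1 lies next to WT 1, and Grsf1cKO 2 is high in the negative arm (0.23), which rests most on *Per1*. Grsf1cKO 3 is lowest in the positive arm (-0.36). Without *Npas2*, Grsf1cKO 2 and 3 are both at -0.26 in that arm and WT 3 is at -0.21.

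How far the clock genes varied between mice was set against all 17030 genes tested by their brightest probe, whose median SD over the 6 mice was 0.15. *Per1* and *Npas2* had SDs of 0.38 and 0.37, larger than those of 86.4% and 85.4% of genes. *Arntl* and *Per2* followed with 0.24 each, above 71.1% of genes in either case, then *Per3* with 0.22 and *Dbp* with 0.19. *Clock*, *Nr1d1* and *Cry1* varied about as much as the median gene, with 0.16, 0.15 and 0.15, and *Nr1d2* varied less, with 0.10. The mice that set these extremes differed by gene. Grsf1cKO 2 was highest in *Npas2*, *Per1*, *Per2* and *Per3*, and WT 1 was highest in *Clock*, *Cry1* and *Nr1d2* and lowest in *Per3*, *Nr1d1* and *Dbp*.

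Genes most like *Arntl* and *Dbp* were ranked by the root mean square difference between centered log2 levels over the 6 mice, with the sign kept or turned. Among 17019 genes, the 5 nearest to *Arntl* were *Pakap*, *C3*, *Lalba*, *Abhd12b* and *Cyp4b1*, at differences from 0.03 to 0.07 against 0.22 for the swing of *Arntl* itself. The complement gene *C3* read 16.33, 15.91 and 15.98 for Grsf1cKO 1 to 3, against 16.39, 16.42 and 15.73 for WT 1 to 3, the same order of mice as *Arntl* but for Grsf1cKO 2 and 3. With the sign turned, *Trim16*, *Cited4*, *Abca5*, *Tgfb2* and *Ccn1* came first. Of the negative arm, *Dbp* ranked 58 (difference 0.12), *Per3* 325 (0.16) and *Per2* 1196 (0.19). *Nr1d1* ranked 5287, *Nr1d2* 7748, *Cry1* 11550 and *Per1* 13164, at differences from 0.24 to 0.36. A gene that does not vary between mice would stand at 0.22, so these last genes were farther from *Arntl* than a flat gene. With the sign kept, *Clock* was the nearest member to *Arntl* at rank 1524 (0.18), followed by *Cry1* at 2128 (0.19) and *Nr1d2* at 3970 (0.21). These were only a little nearer than a flat gene. For *Dbp* the nearest genes were *Pllp*, *Stard3*, *Atad2b*, *Nudt17* and *Arfgap1*, with *Per3* at rank 521, and with the sign turned *Arntl* was the nearest member at rank 576. These ranks describe 6 mice on shared slides and say nothing of shared control.

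Markers of other cell types were set beside these patterns, since the samples were bulk muscle, in which fewer cells of a type and less RNA per cell cannot be told apart. The 7 adipocyte markers, led by *Fabp4*, averaged -0.25, 0.18 and -0.46 for Grsf1cKO 1 to 3, against 0.39, 0.32 and -0.71 for WT 1 to 3 relative to the WT mean. They were high in WT 1 and WT 2 and lowest in WT 3, as *Arntl* was, but ranked Grsf1cKO 1 below Grsf1cKO 2, where *Arntl* had the opposite order. The adipokine gene *Cfd* swung most, with 15.42, 15.21 and 14.80 for Grsf1cKO 1 to 3, against 16.33, 16.61 and 14.60 for WT 1 to 3. The 3 erythroid markers tested, led by *Hba-a1*, averaged -0.29, 0.20 and -0.30 for Grsf1cKO 1 to 3, against 0.14, 0.43 and -0.57 for WT 1 to 3. The 5 macrophage markers, led by *Csf1r*, averaged -0.08, -0.05 and 0.98 for Grsf1cKO 1 to 3, against -0.03, 0.16 and -0.13 for WT 1 to 3. Grsf1cKO 3 thus stood apart in macrophage markers, with *Cd68* at 13.31 against 11.57 to 11.97 in the other mice. The 5 fibroblast markers, led by *Dcn*, were also highest in Grsf1cKO 3, averaging 0.05, 0.08 and 0.41 for Grsf1cKO 1 to 3, against 0.22, -0.09 and -0.13 for WT 1 to 3.

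Under an unadjusted *p* of 0.05, 1.19% of all genes were higher and 2.28% lower with limma, and 4.51% and 6.60% with the *z*-test. None of the markers in these lists was under that *p* between genotypes with limma or with the *z*-test of the methods. Their list medians were -0.14 for adipocyte, -0.14 for erythroid, 0.19 for macrophage, 0.21 for fibroblast and -0.09 for endothelial markers (5 genes, led by *Cdh5*), against -0.02 for all genes tested. For 10 muscle fiber genes, led by *Tnnt3*, the median was 0.03. The 3 smooth muscle genes, led by *Acta2*, had a median of -0.00, and the 2 satellite cell genes tested, led by *Cdh15*, 0.10. *Myf5* was not well above background in any mouse, and *Hbb-bs* was not matched to a probe. The part of these cell types in the levels of *Arntl*, *Dbp* and the other clock genes was not tested.

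**Figure D4:**
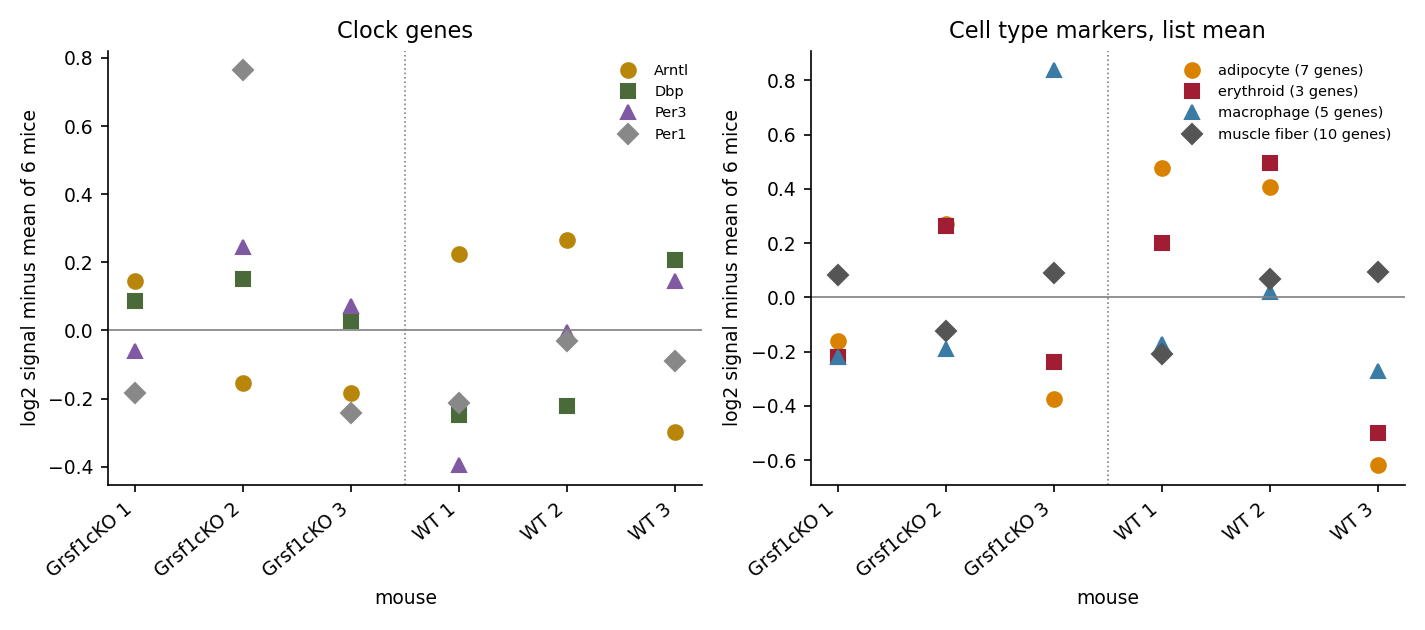
Log2 signal minus the mean of the 6 mice (vertical axes) in each mouse for 4 clock genes (left) and for the mean of 4 marker lists (right). *Arntl* and *Dbp* lie on opposite sides of 0 in every mouse except Grsf1cKO 1, *Per1* is high in Grsf1cKO 2, adipocyte and erythroid markers are lowest in WT 3, and macrophage markers are highest in Grsf1cKO 3.

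Other genes of the clock were examined in the same way. Of 17 further clock genes 16 were tested, *Rorb* not being matched to a probe, and limma called 0 of them. Under an unadjusted *p* of 0.05 there were 0 higher and 1 lower with limma, against 1.19% of all genes higher and 2.28% lower. With the *z*-test there were 0 higher and 2 lower, *Rora* and *Csnk1e*, against 4.51% and 6.60% of all genes. The gene lower with limma was *Csnk1e*, a kinase that phosphorylates PER proteins, with 12.69, 12.60 and 12.38 for Grsf1cKO 1 to 3, against 12.85, 12.83 and 12.82 for WT 1 to 3. Its genotypes did not overlap, and the difference was -0.28 (limma, unadjusted *p* = 0.0398, adjusted *p* = 0.994), while of its other probes the brighter overlapped and differed by -0.12 and the dimmer did not overlap and differed by -0.19 (unadjusted *p* = 0.0972). The log2 fold change was above 0 for 6 and below 0 for 10 of the 16 genes, with a median of -0.06 against -0.02 for all genes.

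*Nfil3*, a repressor that competes with DBP at D-boxes and is known as a target of NR1D proteins, followed *Arntl* in the WT mice. It read 12.77, 12.82 and 12.69 for Grsf1cKO 1 to 3, against 13.11, 13.25 and 12.65 for WT 1 to 3. WT 1 and WT 2, the mice first hybridized on slide 1, were high, and all other mice lay within a narrow band. Grsf1cKO 1, high in *Arntl*, was thus not high in *Nfil3*. The effect of the slide on *Nfil3* was not tested. Of the 17 promoters of other clock genes, that of *Nfil3* alone holds a ROR element (5.88%), against 6.45% of all promoters. *Ciart*, a repressor of the loop, was highest in Grsf1cKO 2, as *Per1* was, with 9.42, 9.96 and 9.07 for Grsf1cKO 1 to 3, against 9.20, 9.19 and 9.52 for WT 1 to 3. *Hlf*, which encodes a relative of DBP, had its highest level in WT 3, at 9.78, as *Dbp* did.

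Clock-controlled output genes were taken from a list of 18, all of them tested, and 0 were called with limma or with the *z*-test. Under an unadjusted *p* of 0.05 there were 0 higher and 2 lower by either test, *Noct* and *Nampt*, against 2.28% of all genes lower with limma and 6.60% with the *z*-test. *Noct*, a rhythmic gene that encodes nocturnin, had 12.59, 12.92 and 12.77 for Grsf1cKO 1 to 3, against 13.23, 13.13 and 13.12 for WT 1 to 3. *Nampt*, which encodes the rate-limiting enzyme of NAD salvage and is an E-box target of the clock, had 13.52, 13.57 and 13.79 for Grsf1cKO 1 to 3, against 14.06, 13.82 and 14.13 for WT 1 to 3. Genotypes did not overlap in 3 of the 18 genes, *Noct*, *Nampt* and *Lpin1*, with differences of -0.40, -0.38 and -0.24 and an adjusted *p* of 0.994 each (limma), where 9.36% of all probes do not overlap. The other *Noct* probe overlapped, with a difference of -0.15 (unadjusted *p* = 0.336). The list median was -0.05, with 7 genes above 0 and 11 below.

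Genes that respond to fasting, glucocorticoids or temperature were listed because these cues also act on clock genes. Of 10 fasting-responsive genes, led by *Pdk4*, 0 were called and 0 were under an unadjusted *p* of 0.05 by either test. Of all genes, 1.19% were higher and 2.28% lower under that *p* with limma, and 4.51% and 6.60% with the *z*-test. In the list 7 genes were above 0, with a median of 0.17 against -0.02 for all genes. *Pdk4*, which restrains glucose oxidation, read 16.36, 16.68 and 16.67 for Grsf1cKO 1 to 3, against 16.32, 16.45 and 16.26 for WT 1 to 3, and the genotypes overlapped. They did not overlap in 1 of the 10 genes, *Lpin1*, against 9.36% of all probes. *Lpin1* lay lower in Grsf1cKO by its brighter probes, with differences of -0.24 and -0.32, while its dimmest probe overlapped and differed by -0.13. The list averaged 0.10, 0.29 and 0.10 for Grsf1cKO 1 to 3, against -0.11, 0.18 and -0.07 for WT 1 to 3.

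The 12 glucocorticoid-responsive genes, led by *Tsc22d3*, included 1 higher and 0 lower under an unadjusted *p* of 0.05 with limma (1.19% and 2.28% of all genes), none of them called, and had a median of 0.08. That gene was *Cdkn1a*, an inhibitor of the cell cycle, with 12.09, 11.84 and 12.43 for Grsf1cKO 1 to 3, against 11.27, 11.75 and 11.50 for WT 1 to 3 (adjusted *p* = 0.994, limma). Its other, dimmer probe overlapped between genotypes, with a difference of 0.07. The *z*-test called *Cdkn1a*, against 0.687% of all genes called by that test, and found 2 higher under an unadjusted *p* of 0.05, *Cdkn1a* and *Sesn1*, against 4.51% of all genes. The list averaged 0.11, 0.31 and 0.03 for Grsf1cKO 1 to 3, against 0.04, 0.06 and -0.10 for WT 1 to 3. Grsf1cKO 2, the mouse with high *Per1*, was thus highest. That was not particular to this list, since the same mouse was also highest in the fasting-responsive list (0.29) and in the clock-controlled output list (0.09). *Ddit4*, an inhibitor of mTORC1 picked after its values were seen, stood out in Grsf1cKO 2. It read 12.85, 14.29 and 12.84 for Grsf1cKO 1 to 3, against 12.85, 12.83 and 12.54 for WT 1 to 3. *Cdkn1a*, in contrast, was lower in Grsf1cKO 2 (11.84) than in the other Grsf1cKO mice. *Cebpd* and *Tsc22d3* were also highest in Grsf1cKO 2, at 14.37 and 15.95. The part of glucocorticoids in the level of *Per1* was not tested.

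The 12 temperature-responsive genes, led by *Hsp90ab1*, included 1 higher and 0 lower under an unadjusted *p* of 0.05 with limma (1.19% and 2.28% of all genes), none of them called, and had a median of 0.00. It was *Rbm3*, a cold-inducible RNA-binding protein gene, with 14.85, 14.81 and 14.69 for Grsf1cKO 1 to 3, against 14.50, 14.43 and 14.66 for WT 1 to 3 (difference 0.25, adjusted *p* = 0.994, limma). *Cirbp*, the other cold-inducible gene of the list, read 13.71, 13.79 and 13.69 for Grsf1cKO 1 to 3, against 13.44, 13.58 and 13.58 for WT 1 to 3 (difference 0.20, unadjusted *p* = 0.0629, limma). Every Grsf1cKO mouse lay above every WT mouse in both, where 9.36% of all probes do not overlap. The other probes of *Rbm3* did not share this, with overlapping genotypes in 2 and a difference of -0.56 in the dimmest. The *z*-test called 0 genes of this list and found 2 higher under an unadjusted *p* of 0.05, *Cirbp* and *Rbm3*, against 4.51% of all genes.

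**Figure D5:**
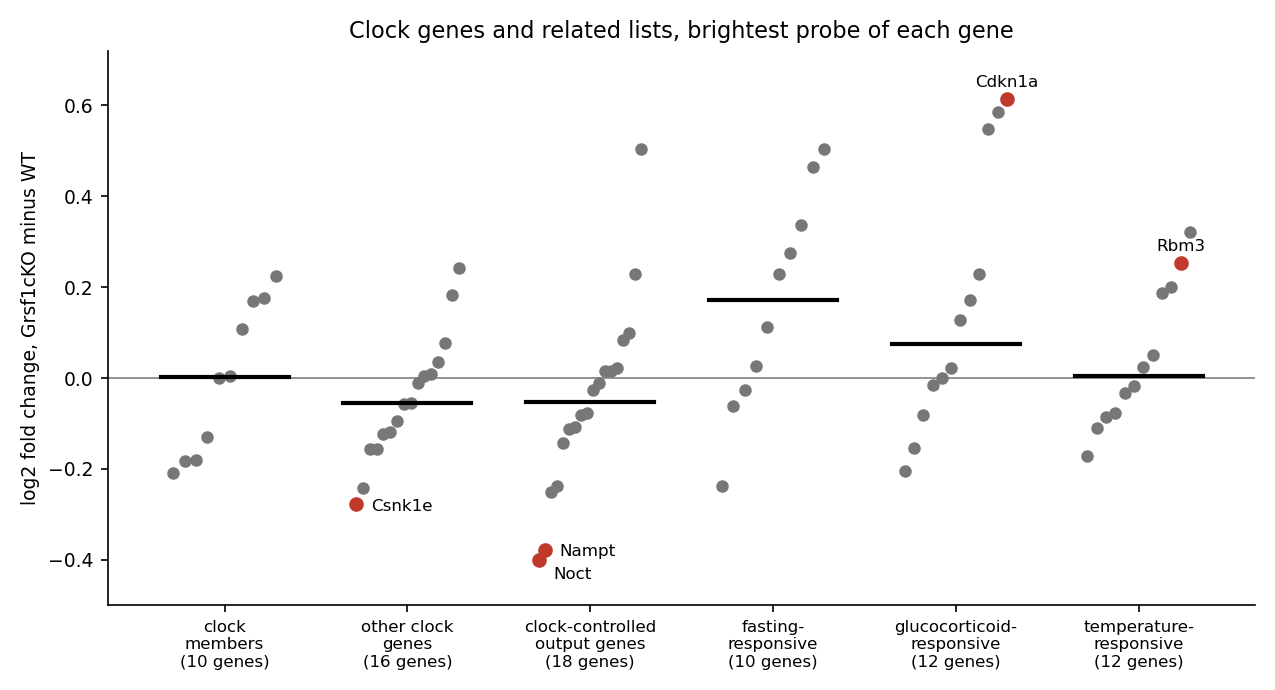
Log2 fold change (Grsf1cKO minus WT, vertical axis) of the clock members and of 5 related lists, 1 point per gene from its brightest probe, with the list median as a line and genes under an unadjusted limma *p* of 0.05 in red. Of the clock members, 0 are red, and among the other lists *Csnk1e*, *Noct* and *Nampt* lie below 0 and *Cdkn1a* and *Rbm3* above.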

How the data were processed

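Spot intensities were read from the Agilent Feature Extraction (version 12.0.3.1) output that the authors deposited, in which the processed signal is corrected for background. The authors also deposited a score for each spot, a *z*-score of the log2 processed signal within an array, which equaled scores recomputed here within 0.005. Control spots were left out, non-uniform and outlier spots were blanked, quantile normalization took in all 8 arrays, and log2 signals were averaged over spots of a probe and over arrays of a mouse. A probe was tested when it stood well above background in 3 or more mice, with genotype alone in the model (limma 3.58.1, R 4.3.3). Symbols came from RefSeq accessions, which matched 32994 of 56605 probes, and a gene of the lists was represented by its brightest probe. Motifs were searched with Python 3.11.15. All member genes were named, with list genes that were best known or under an unadjusted *p* of 0.05, and the 5 genes nearest to *Arntl* in either direction and to *Dbp* with the sign kept. Members and lists were chosen with earlier results of these data known. Other genes named, such as *Nfil3*, *Ciart*, *Ddit4* and *Myh7*, were chosen after their values were seen. The number of arrays limits precision. The repeat of Grsf1cKO 1 stood apart among the 8, with 88.9% of spots well above background against 66.3% to 73.1% on the others. No spot outside the controls was saturated. Alternatives covered scaling to the 75th percentile, normexp with an offset of 50 on the median spot signal, the *z*-scores as deposited, filters on detection, the repeat arrays, the slide, the *z*-test of the methods, an intensity trend, the replicate number as a block, single mice left out and the choice of probe. Scripts were tested on simulated data. Pathway tests and the ANOVA filter of the study were not repeated.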

Additional observations from a re-analysis of the deposited data

How the results depend on the processing

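No clock member probe was called under any of the 18 alternatives, and none of the other clock and output genes was. The number of member probes under an unadjusted *p* of 0.05 was 0 in the main result and in 13 alternatives. It was 1, the brightest probe of *Nr1d2*, with normexp, first arrays only, an intensity trend or the *z*-test of the methods (adjusted *p* = 6.19e-09 for the *z*-test and 0.979 to 0.991 for the others), and 2, both of *Dbp*, without WT 3. Of the alternatives, 13 can move a log2 fold change. For the brightest probes, *Arntl*, *Clock*, *Per3*, *Cry1*, *Nr1d2* and *Dbp* kept their sign in all 13, *Per1* and *Per2* in 12, *Npas2* in 8 and *Nr1d1* in 6. Of the 9 dimmer probes, 5 kept it as often as the brightest probe of their gene, and 4 did so less often, the dimmest of *Arntl* (4), *Clock* (8), *Per3* (9) and *Cry1* (7). The gap between genotypes in the clock arms, -0.16, was below 0 in all 16 alternatives that can move it, from -0.28 to -0.05. It was -0.13 without *Per1*, a setting chosen after seeing the data. Of the feeding, glucocorticoid and temperature genes, 1 was called by the *z*-test, *Cdkn1a*, and 0 under the other 17 alternatives. All alternatives for these genes were added after seeing the data. Mice share a number only, and whether it marks pairs was not tested. Deviations from the genotype mean correlated between same-numbered mice by 0.226 at most and 0.0942 at least, so not all over 0.1. Between differently numbered mice the correlations ran from -0.188 to 0.0936, all below those of same-numbered mice. With the replicate number as a block, 2403 of 38888 probes were under an unadjusted *p* of 0.05 (limma), against 1648 in the main result. With the replicate block, *Grsf1* (log2 fold change -2.19) had an adjusted *p* of 0.203 (limma) against 0.2 for a call, the fit called 1 of all probes against 3 in the main result (317 of 38859 with the *z*-test), and no member probe was called. Signal over background limits *Npas2* and the dimmest *Clock* probe, each well above background in 4 of 6 mice.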
